A study of Homo sapiens with 3 samples.

Results

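The peroxiredoxins are the 6 human genes PRDX1 to PRDX6, and all 6 were present among the 12040 genes of the deposited table. They were found by gene symbol. The family was selected on earlier results of the same table, in which PRDX3 stood among the lowest genes of one comparison, so the values below are a description of the members and are not tested. Peroxiredoxins are thiol peroxidases: a reactive cysteine reduces hydrogen peroxide, organic peroxides or peroxynitrite, and the oxidised enzyme is then recycled by thioredoxin or, for PRDX6, by glutathione. They are abundant proteins in most human cells, and each member works in its own compartments. When peroxide is high the reactive cysteine of the typical 2-Cys members can be overoxidised, and sulfiredoxin (SRXN1) repairs it.

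Poly(A) RNA had been sequenced from 3 libraries of HEK293, an established human embryonic kidney cell line, here a T-REx Flp-In strain carrying a FLAG-tagged DICER1 transgene in every group. The groups were a knockdown of DICER1 by transfected RNAi, one of DROSHA and a mock transfection, with 1 library each. DICER1 and DROSHA are the ribonucleases that cut miRNA precursors. Titles carry the tag 2.5d, which the labels do not explain, nor do they give the RNAi sequences or the state of the transgene. The table names none of its columns, so none of them is tied to a group by name. It gives 2 fold changes a gene on the log2 scale, both taken by the authors against one shared library, and these are called the first and the second comparison; where a gene or list has a pair of values, they stand in that order. Depth is unknown, no value has a replicate error, and no difference could be set against one. The words rose and fell are used for log2 fold changes of 1 or more in size, that is 2-fold or beyond.

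The targeted genes were read first. The log2 fold change of DICER1 was -1.32 in the first comparison, where it fell, against 0.58 in the second, per the authors' deposited table. For DROSHA the authors' deposited table held -0.11 in the first comparison, against -1.65 in the second, where it fell. If each knockdown library holds the lowest level of its target, the first comparison is DICER1 knockdown against mock. The second is then DROSHA knockdown against mock. No column name states this, so the neutral names are kept. Of 7 markers taken for HEK293, 5 were listed (VIM, KRT8, KRT18, CDH2 and EPCAM), while NEFM and PAX2 were not listed. Of 6 markers of blood, liver, endothelial and fibroblast cells, 0 were listed. Neuronal markers, of which 11 of 15 were listed, differed between the comparisons, with medians of 0.79 and -0.57 per the authors' deposited table. Of these 11, in the first comparison, 5 rose and 0 fell, against 0.174% and 0.166% of all genes. In the second 0 rose and 3 fell, against 0.0831% and 0.748% of all genes. The counts of 0 are at the background, and nothing is read from them. The part of the neuronal markers in the peroxiredoxin values was not tested.

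PRDX3, the peroxiredoxin of the mitochondrial matrix, fell in the second comparison and was level in the first. Its log2 fold change per the authors' deposited table was -0.0027 in the first and -2.11 in the second comparison. On the scale of the level plus 1, this is a ratio of 0.998 in the first and 0.231 in the second comparison, or 4.32-fold lower. Among all 12040 genes PRDX3 ranked 3 from the lowest in the second comparison. In the first it lay in the middle of the genes, with 42.8% of them below it. The first minus the second fold change, in which the shared library cancels, was 2.11 for PRDX3, with rank 10 from the highest. In bulk RNA, fewer cells of a type and less RNA per cell cannot be told apart.

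**Figure D1:**
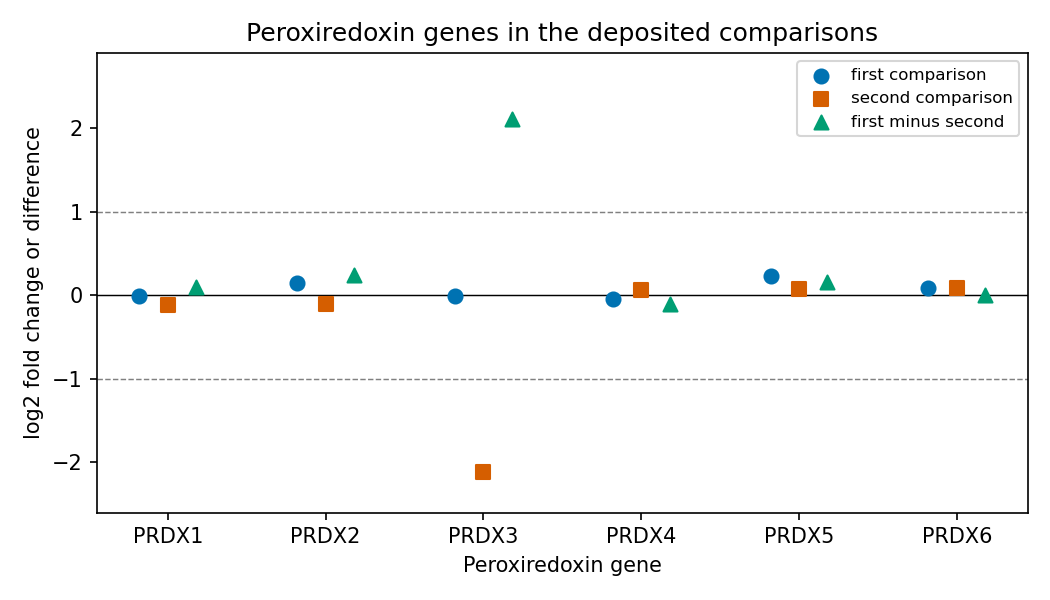
Log2 fold change of each peroxiredoxin gene in the first comparison (circles) and the second (squares), and the first minus the second (triangles), from single libraries with no error bars. Dashed lines mark 1 and -1. PRDX3 lies at -2.11 in the second comparison and 2.11 in the difference, and the other points lie between -0.11 and 0.25.

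Annotated 3' untranslated regions (3' UTRs) were then read on the sense strand for short sequences, in 11124 genes that had one. Each of 16151 7-mers was ranked by the mean fold change of the genes that carry it, scaled by the square root of their number and with the peroxiredoxins left out of the ranking. In the second comparison GTGACTT ranked lowest of all, carried by 1567 genes whose mean lay 0.13 below that of all genes. Of the 6 peroxiredoxins, PRDX3 alone carries it, followed by A, at base 530 of a 3' UTR of 777 bases. Of all genes with a 3' UTR, 2.95% carry this 8-mer and 11.1% the 7-mer without the final A. Nothing is read from the count of members. The coding sequence of DROSHA, on chromosome 5, also holds this 8-mer. How many of all genes hold it in a coding sequence was not counted, so nothing is read from its presence in DROSHA. The stretches of both transcripts are shown because the low value of PRDX3 coincides with this match, which is in capitals (GENCODE 29, GRCh38, both on the minus strand, written in the direction of the RNA with T for U).
PRDX3: aaagtggcagaGTGACTTAactgatcat
DROSHA: gagtaggcttcGTGACTTAtatgacaaa
The PRDX3 stretch lies in the last exon at chr10:119167934-119167961. The gene's transcript spans chr10:119167703-119178833 in 7 exons. The match is given as a description of the sequence, and whether it is bound or bears on the value of PRDX3 was not tested.

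Genes that carry the 8-mer GTGACTTA in the 3' UTR had lower fold changes in the second comparison than genes without the 7-mer. The 328 carriers of the 8-mer (2.95% of genes with a 3' UTR) had a median of -0.18, the 1240 that carry the 7-mer without the final A a median of -0.07, and the 9556 with neither a median of 0.02. In the first comparison the medians of these classes were -0.02, 0.0019 and 0.03. In the second comparison 19 of 328 carriers of the 8-mer fell (5.79%), 34 of 1240 with the 7-mer only (2.74%) and 36 of 9556 with neither (0.377%). The 7-mer was chosen as the lowest of this same comparison, so the contrast is built in and is not tested. PRDX3 was the second lowest of the 328 carriers per the authors' deposited table, between C12orf57 at -2.44 and ZDHHC24 at -1.85.

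**Figure D2:**
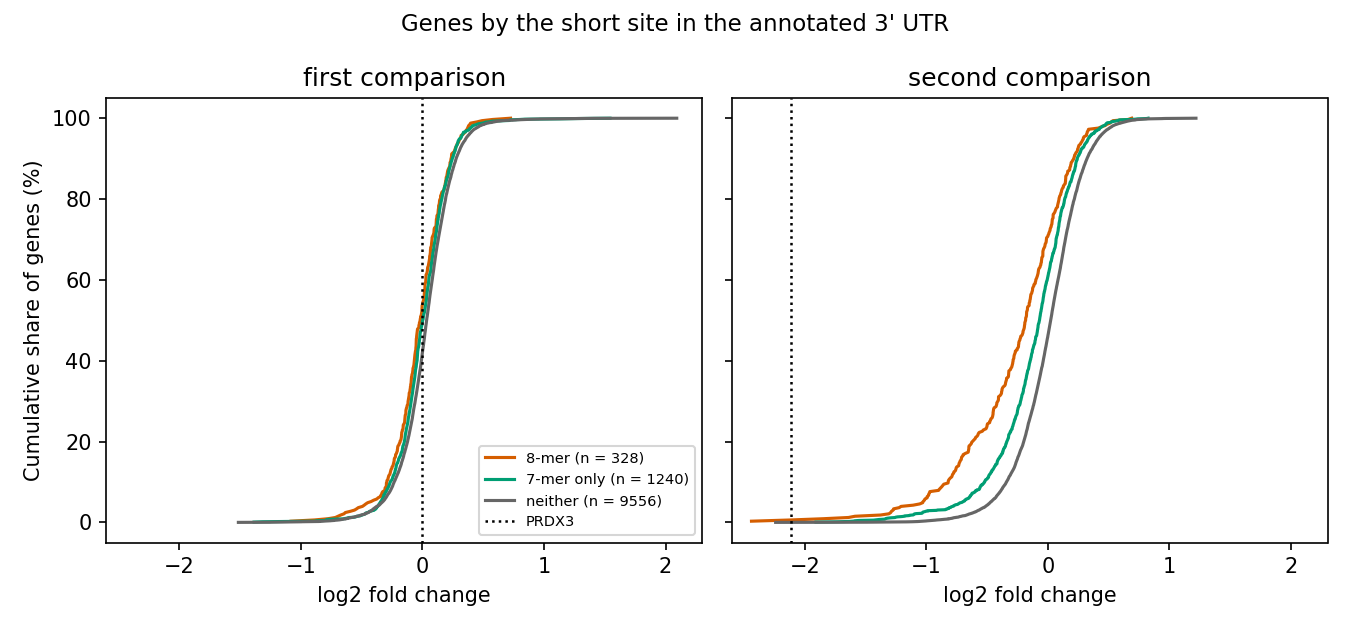
Cumulative share of genes (vertical, %) by log2 fold change (horizontal) in the first comparison (left) and the second (right). Lines are the 328 genes with the 8-mer of PRDX3 in the 3' UTR, the 1240 with its first 7 bases only and the 9556 with neither, and the dotted line is PRDX3. The lines nearly coincide on the left (medians -0.02, 0.0019 and 0.03) and part on the right (medians -0.18, -0.07 and 0.02).

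The cytosolic pair, PRDX1 and PRDX2, are typical 2-Cys enzymes that form dimers recycled by thioredoxin. PRDX1 had fold changes of -0.0098 and -0.11 per the authors' deposited table. PRDX2 was at 0.14 and -0.10 per the authors' deposited table. Both stood within a 2-fold difference of the shared library in each comparison. Neither was far from the middle of all genes, with 41.2% and 73.1% of genes below PRDX1 and PRDX2 in the first and 32.2% and 33.7% in the second comparison.

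PRDX4 is the member of the endoplasmic reticulum and secretory route, where it couples peroxide reduction to disulfide formation. Its fold changes were -0.04 and 0.06 per the authors' deposited table. PRDX5, an atypical 2-Cys enzyme found in mitochondria, peroxisomes and cytosol, shares the mitochondrion with PRDX3. Its fold changes per the authors' deposited table were 0.23 and 0.07, and 85.8% and 60.8% of genes lay below it. PRDX6 is the 1-Cys member, which also has phospholipase A2 activity and relies on glutathione with GSTP1. Its pair of fold changes was 0.09 and 0.08 per the authors' deposited table.

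Of the 6 peroxiredoxins, 0 rose and 0 fell in the first comparison, where 0.174% of all genes rose and 0.166% fell. In the second, 1 of 6 fell and 0 rose, against 0.748% and 0.0831% of all genes. In the difference 1 of 6 reached 1 and 0 reached -1, against 1.31% and 0.349% of all genes. PRDX3 took part in the choice of the family, so nothing is read from these shares. Without PRDX3 the other 5 spanned -0.04 to 0.23 in the first comparison and -0.11 to 0.08 in the second per the authors' deposited table, with medians of 0.09 and 0.06. The median of all 12040 genes was 0.03 in the first and 0.0063 in the second comparison. In the second comparison the lowest of the other 5, PRDX1, stood 2.0 above PRDX3.

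A lower threshold of 0.5 and a higher one of 1.5 gave the same members: PRDX3 alone in the second comparison and in the difference, and no member in the first. At 0.5 the share of all genes past the threshold in either direction was 3.5% in the first comparison, 7.92% in the second and 13.4% in the difference. At 1.5 these shares were 0.0415%, 0.15% and 0.415%.

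**Figure D3:**
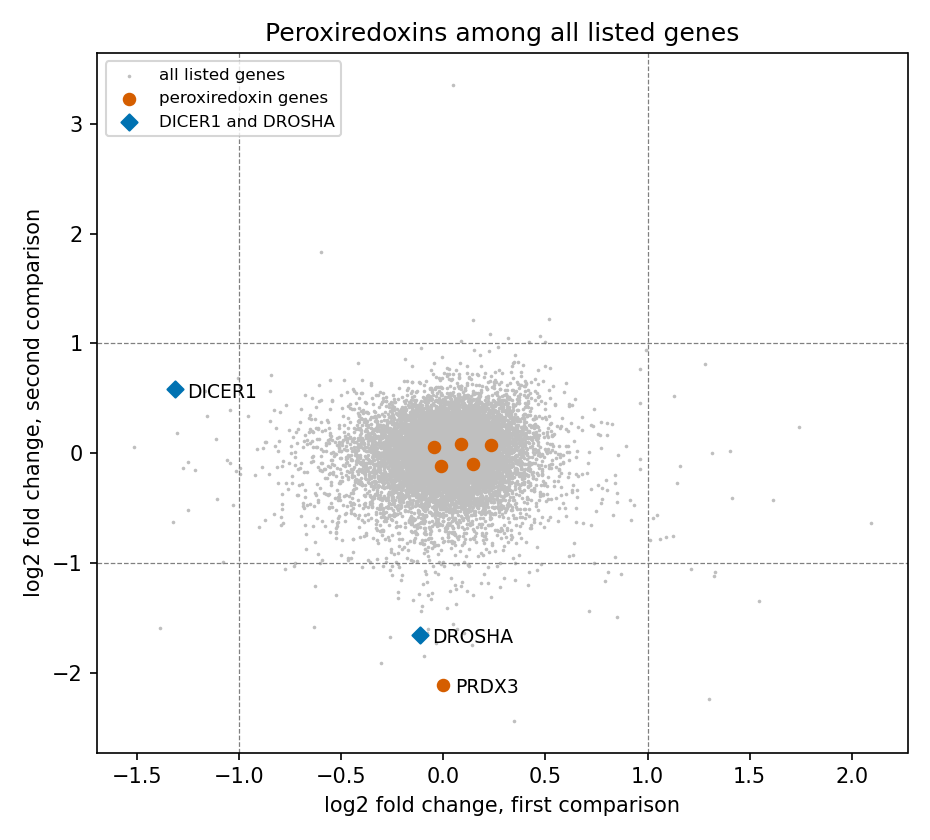
Log2 fold change in the first comparison (horizontal) against the second (vertical) for all 12040 genes (grey), the 6 peroxiredoxins (orange circles) and DICER1 and DROSHA (blue diamonds), from single libraries. Dashed lines mark 1 and -1, and both axes share the same denominator library. The 5 peroxiredoxins other than PRDX3 lie inside the main cloud, and PRDX3 lies below it beside DROSHA.

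The genes most like PRDX3 were named by Euclidean distance over the 2 comparisons. The nearest 5 were ZDHHC24, a palmitoyltransferase-family gene, at 0.28, the actin-binding gene CORO1C at 0.37, SLMO2 at 0.39 (a row uncertain because a readthrough transcript overlaps it), ARL6IP6 at 0.39 and DROSHA at 0.47. No gene lay within 0.1 of PRDX3, while between 676 (PRDX5) and 1284 (PRDX6) genes lay within 0.1 of each other member. PRDX3 was selected as an extreme of these same values, so this contrast is built in. The 5 nearest had fold changes from -0.31 (CORO1C) to 0.14 (ARL6IP6) in the first comparison and from -1.91 (CORO1C) to -1.65 (DROSHA) in the second per the authors' deposited table. The pattern rests on 2 values a gene that share a library. Of the 5 genes nearest to PRDX3, ZDHHC24 carries the 8-mer in its 3' UTR, CORO1C and SLMO2 carry the 7-mer there, and ARL6IP6 and DROSHA hold the 7-mer outside it. Of all genes with a 3' UTR, 2.95% carry the 8-mer there and 11.1% the 7-mer only. The share that hold it outside the 3' UTR was not counted. These genes and the 7-mer were both picked for low values in the second comparison, so the overlap is built in and is not tested.

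The genes beside PRDX3 on chromosome 10 did not share its value. Only 0.748% of all genes fell in the second comparison, so this is at the background and nothing is read from it. By gene order in RefSeq (GRCh38.p14), the authors' deposited table listed FAM45A at 0.27 and SFXN4 at -0.09 on one side in the second comparison. On the other side GRK5 was at 0.21 and RGS10 at 0.26 per the authors' deposited table. All 4 neighbours, in the first comparison, lay between -0.0036 (SFXN4) and 0.20 (GRK5) per the authors' deposited table.

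The lowest 7-mer of the first comparison, AATCTAA, is carried by 1292 of the 11124 genes with a 3' UTR and by 0 of the 6 peroxiredoxins. Nothing is read from this count of members. The other members have 3' UTRs of 944 bases (PRDX6), 293 (PRDX1), 261 (PRDX2), 120 (PRDX5) and 64 (PRDX4), so the length searched differs widely among them. Their transcripts span chr1:173477266-173488807 (PRDX6, plus strand, 5 exons), chr1:45511036-45521938 (PRDX1, minus, 6 exons), chr19:12796820-12801859 (PRDX2, minus, 6 exons), chr11:64318088-64321811 (PRDX5, plus, 6 exons) and chrX:23667446-23686399 (PRDX4, plus, 7 exons) in GRCh38. PRDX6 has a longer 3' UTR than PRDX3 and carries neither 7-mer.

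Because DICER1 and DROSHA make miRNAs, the 3' UTRs were also read for perfect matches to the seed (bases 2 to 8) of 1 miRNA from each of 16 families. MiRNA levels were not measured here. PRDX3 has matches to miR-18a, miR-23b and miR-26a, PRDX6 has one to miR-10a, and PRDX1, PRDX2, PRDX4 and PRDX5 have none of the 16. The mature miRNAs (RefSeq, GRCh38.p14) are shown with the seed in capitals, since these 4 are the ones with a match in a peroxiredoxin.
miR-18a-5p: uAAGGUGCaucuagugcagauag
miR-23b-3p: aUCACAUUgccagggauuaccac
miR-26a-5p: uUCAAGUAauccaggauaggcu
miR-10a-5p: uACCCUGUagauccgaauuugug
They lie at chr13:91350756-91350778 (plus strand), chr9:95085265-95085287 (plus strand), chr3:37969413-37969434 (plus strand, the first of 2 loci) and chr17:48579904-48579926 (minus strand). The matched sites in the transcripts (GENCODE 29, GRCh38) follow, with the seed match in capitals.
PRDX3 and miR-18a: catgtgtatctGCACCTTctcaactga
PRDX3 and miR-23b: tgattgaagcaAATGTGAatcgtatta
PRDX3 and miR-26a: tttcttagcctTACTTGAatcttgcct
PRDX6 and miR-10a: gtgcctttcacACAGGGTttgcattta
In PRDX3 they lie at chr10:119168447-119168473, chr10:119167968-119167994 and chr10:119168151-119168177, and in PRDX6 at chr1:173488620-173488646.

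Such matches are common: 9.45% of the 11124 genes have the miR-18a match, 20.1% that of miR-23b, 13.3% that of miR-26a and 13.1% that of miR-10a. Carriers of the miR-23b match had medians of -0.0080 and 0.04, and those of the miR-26a match -0.02 and 0.06. Carriers of the miR-18a match had medians of 0.03 and 0.02, and those of the miR-10a match 0.02 and 0.01. In the second comparison PRDX3, at -2.11 per the authors' deposited table, lay below the medians of the carriers of all 3 of its seed matches. PRDX3 ranked 3 from the lowest of all genes there and was selected on that value. Its place below these medians was thus fixed in advance, and whether the matches bear on it was not tested.

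So few of all 12040 genes passed the threshold (0.174% rose and 0.166% fell in the first comparison, and 0.0831% and 0.748% in the second) that a list of the sizes used here with none past it is at the background. Counts of 0 in the lists that follow are therefore given as description, and nothing about a list is read from them.

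The enzymes that recycle peroxiredoxins were listed in full, 14 of 14 genes of the thioredoxin and glutaredoxin system. In the first comparison 1 rose and 0 fell, and in the second 0 rose and 0 fell, with medians of 0.03 and 0.03. The gene that rose was TXNIP, which binds and inhibits thioredoxin, at 1.28 and 0.81 per the authors' deposited table. Cytosolic thioredoxin TXN was at -0.19 and -0.07 per the authors' deposited table, and the glutaredoxin GLRX at -0.81 and 0.01. Of the other ends of the list, NXN (nucleoredoxin) was at 0.22 and -0.36 and the reductase TXNRD3 at 0.04 and -0.24 per the authors' deposited table.

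Partners of PRDX3 in the mitochondrion were read next. The authors' deposited table listed TXN2, the mitochondrial thioredoxin that reduces PRDX3, with fold changes of 0.14 and 0.21. TXNRD2, the mitochondrial thioredoxin reductase, was at 0.02 and 0.07 per the authors' deposited table. Of 10 listed mitochondrial redox partners 0 rose and 0 fell in either comparison, with medians of 0.15 and 0.02. GLRX2, a mitochondrial glutaredoxin, was the highest in the second comparison at 0.57, and IDH2, which makes NADPH in the matrix, the lowest at -0.33 per the authors' deposited table. At the ends of the first comparison stood NNT, the proton-driven source of mitochondrial NADPH, at 0.31 and GLRX2 at -0.02 per the authors' deposited table. Of 14 genes of mitochondrial import and proteolysis 0 rose and 0 fell in either comparison, with medians of 0.10 and 0.11. The matrix protease LONP1 was the highest of these in both, at 0.34 and 0.43 per the authors' deposited table. TFAM, which packages mitochondrial DNA, was the lowest in the first at -0.26, and TIMM17A, a subunit of the inner membrane translocase, the lowest in the second at -0.10 per the authors' deposited table.

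Repair or reactivation of peroxiredoxins was covered by 5 of 5 genes, of which 1 rose in the first comparison and 0 fell, and in the second 0 rose and 0 fell, with medians of -0.02 and -0.04. SRXN1, which reduces overoxidised 2-Cys peroxiredoxins, was at -0.02 and -0.04 per the authors' deposited table. GSTP1, the glutathione transferase that reactivates PRDX6, was at -0.02 and -0.65 per the authors' deposited table. The sestrins, stress-induced regulators first described as aids to peroxiredoxin repair, went different ways in the first comparison. SESN2 rose, at 1.14, while SESN1 was at 0.53 and SESN3 at -0.80 per the authors' deposited table. In the second comparison SESN2 was at -0.27, SESN1 at 0.08 and SESN3 at 0.11 per the authors' deposited table.

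**Figure D4:**
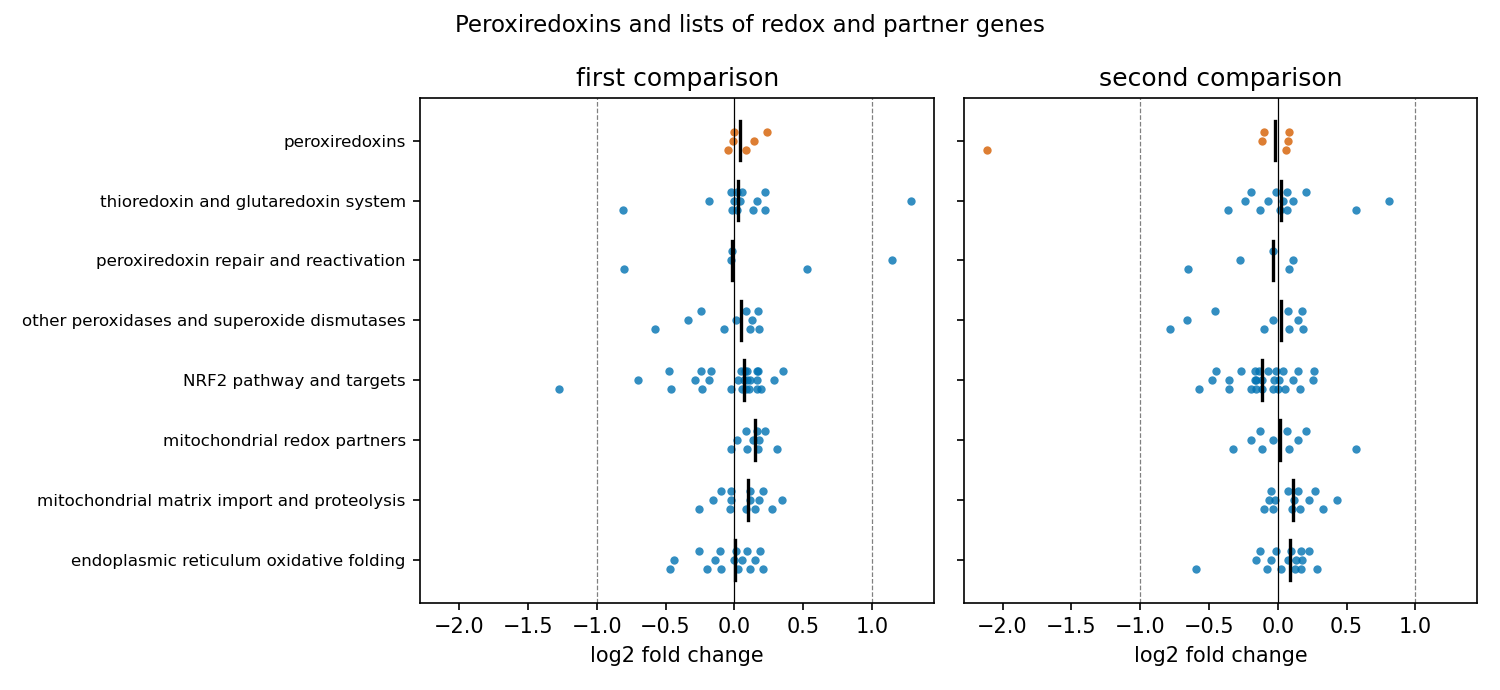
Log2 fold change (horizontal) of the 6 peroxiredoxins (orange) and of 7 lists of redox and partner genes (blue) in the first comparison (left) and the second (right). Each point is 1 gene, black bars are medians and dashed lines mark 1 and -1; some genes belong to more than 1 list. PRDX3, at -2.11, is the lone point below -1 in the right panel, and the bars of the lists lie between -0.11 and 0.15 over both panels.

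Among other enzymes that remove peroxide and superoxide, 10 of 13 genes were listed, and 0 rose and 0 fell in either comparison, with medians of 0.05 and 0.02. SOD1, the cytosolic superoxide dismutase, had the lowest value in the second comparison, -0.78, against -0.07 in the first per the authors' deposited table. SOD2, its mitochondrial counterpart, was at 0.18 and 0.15 per the authors' deposited table. GPX3, a secreted glutathione peroxidase, was at -0.58 and -0.66, and MGST1, a microsomal glutathione transferase, at -0.34 and -0.10 per the authors' deposited table. Catalase (CAT), the peroxidase of peroxisomes, named outside the rule on list ends, was at 0.13 and 0.08 per the authors' deposited table.

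NRF2, encoded by NFE2L2, is the transcription factor that induces PRDX1, SRXN1 and other antioxidant genes, and KEAP1 is its inhibitor. Of 29 genes of this pathway 27 were listed, 0 rose and 1 fell in the first comparison, and 0 rose and 0 fell in the second, with medians of 0.07 and -0.11. The gene that fell was SQSTM1, an autophagy receptor that binds KEAP1, at -1.27 and -0.14 per the authors' deposited table. NFE2L2 itself was at 0.19 and 0.26 per the authors' deposited table. HMOX1, heme oxygenase, was at -0.47 and -0.48, and PIR, pirin, at -0.70 and -0.57 per the authors' deposited table. At the upper end, the ferritin light chain gene FTL was at 0.36 and 0.15, and GCLC, the catalytic subunit of glutathione synthesis, at 0.07 and 0.25 per the authors' deposited table.

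Oxidative folding in the endoplasmic reticulum, the setting of PRDX4, was covered by 16 of 17 genes. In both comparisons 0 rose and 0 fell, with medians of 0.0056 and 0.09. The oxidases ERO1L and ERO1LB, which produce peroxide there, were lowest in the first comparison at -0.47 and -0.44 per the authors' deposited table. In the second ERO1L was at 0.23 and ERO1LB at 0.03, while the sulfhydryl oxidase QSOX2 was lowest at -0.59 per the authors' deposited table. PRDX4 lay inside the range of the list in both comparisons.

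Copies and overlapping genes limit what a row can hold. RefSeq lists processed or other pseudogenes for PRDX1 (1), PRDX2 (4), PRDX3 (4), PRDX4 (2) and PRDX5 (1), and how reads shared with them were divided remains unstated in the labels and file. An exon of MMACHC overlaps PRDX1 on the opposite strand, and an antisense gene overlaps PRDX2, so both rows are uncertain if reads were counted without strand.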

How the data were processed

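The deposited table holds 12040 genes with no header. Per the submitters' processing notes the build was hg19 and the tools were Cuffdiff 2.1.1, Cufflinks, TopHat2 2.06, SAMtools and CASAVA 1.8.2, with no role or order given. The 2 columns of log2 fold changes are the authors' deposited values: each equalled the log2 ratio of a level to one shared level after 1 was added to both, within 1e-11 in all 12040 genes, so differences of low genes are understated. The 3 columns of levels name no sample and served only for that check. The members and lists were chosen with earlier results of these data known.

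Ranks, counts at 1 in size, medians, and the first minus the second fold change were computed with pandas 2.3.3 and numpy 2.4.6. Named genes were the members, DICER1, DROSHA, the 2 genes at either end of each of 10 lists in each comparison with any past the threshold, the 5 nearest to PRDX3 and its 2 neighbours on each side; most list ends are printed. GENCODE 29 gave 1 protein-coding transcript per gene, by APPRIS rank and then coding length. Of the symbols, 10580 matched directly and 11356 with RefSeq synonyms, and 11124 carried an annotated 3' UTR (50 bases or more). The 7-mers were those with at least 50 carriers. The ranking was tested only on simulated data, shuffled fold changes in which the carriers of a randomly drawn 7-mer were lowered. That shift was larger than the one seen for GTGACTT, so recovery of a site like it was not tested. With 1 library per group no test was possible.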

Additional observations from a re-analysis of the deposited data

How the results depend on the processing

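Values were recomputed after re-centring on the median of all genes, after adjustment for GC content and the lengths of the transcript and its 3' UTR, with thresholds of 0.5 and 1.5 and, for lists, with the mean; a shift of 0.1 on the log2 scale counts as moved. PRDX3 stayed past the threshold in the second comparison and in the difference under each of these. Re-centring moved 0 of 42 results. No fold change or list median could move, since the medians subtracted are below 0.1. They were 0.03 in the first comparison, 0.0063 in the second and 0.02 in the difference. Adjustment moved 6 of 43: PRDX3 to 0.10 in the first comparison and 2.27 in the difference, PRDX5 to 0.18 in the second and -0.021 in the difference, PRDX2 to 0.10 in the difference, and the median difference of mitochondrial redox partners to 0.0013. The 7-mer GTGACTT kept rank 1 under adjustment, an alternative chosen after the data were seen. The mean moved 6 of 21 list values: peroxiredoxin repair genes to 0.17, -0.15 and 0.32 in the first comparison, the second and the difference, other peroxidases and dismutases to -0.054 and -0.14 in the first and second, and NRF2 genes to -0.065 in the first. Mean and median differ in sign for the repair, NRF2 and endoplasmic reticulum folding genes in the first comparison (the last with a median of 0.0056 and a mean of -0.053), for the peroxidases and dismutases in both, and for the thioredoxin and glutaredoxin system in the difference (median -0.05, mean 0.02). The cause was not tested. No paired analysis was possible because each group has 1 library, and for the same reason no library could be left out. Depth is unknown.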
